A study of Homo sapiens with 18 samples.

Results

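The genes described here handle the acid and lactate that cells make when they live on glycolysis. They are 3 carbonic anhydrases (CA9, CA12 and CA2), 3 members of the monocarboxylate transporter family (SLC16A1, SLC16A3 and SLC16A9), the transporter chaperone basigin (BSG) and the anion exchanger SLC4A2. The rows of the deposited count table whose Ensembl identifier maps to these symbols were taken, which gave 8 of 61806 genes, and all 8 passed the filter on low counts that left 19743 genes for testing. The genes were chosen by earlier measured changes of these libraries: CA9 was known to be among the largest rises from 0 h to 48 h in HepG2, and SLC16A9 among the largest differences between the lines at 48 h. For the change from 0 h to 48 h in HepG2, for the lines at 48 h and for how far that change differed between them, values are therefore given as a description without a p. Other comparisons that use HepG2 at 0 h or 48 h, or APOA4-KO at 48 h, share libraries with these contrasts. A p printed for them is therefore not independent of the choice of genes.

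RNA was sequenced from HepG2, an established human hepatoma line, and from APOA4-KO, a HepG2 derivative in which the apolipoprotein gene APOA4 was edited with CRISPR-Cas9 and cells were grown on from single colonies. Each line was taken at 0 h, before hypoxia, and after 24 h and 48 h in 1% oxygen, with 3 libraries in each of the 6 groups and 18 libraries in all. The 0 h cells were the only ones outside hypoxia, so hypoxia and time in culture cannot be told apart, and neither can the edit and any other difference between the edited line and its parent. Nothing in the labels says that the 3 libraries of a group came from separate cultures, so a p measures the spread between these libraries, which may be technical.

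Cells in hypoxia depend on glycolysis and release lactate together with protons. SLC16A1 (MCT1) and SLC16A3 (MCT4) carry lactate and a proton together across the plasma membrane, and both need basigin, a single-pass glycoprotein also called CD147, to reach the cell surface. CA9 and CA12 are carbonic anhydrases whose active site faces the outside of the cell, CA2 is a fast enzyme of the cytosol, and SLC4A2 (AE2) exchanges chloride for bicarbonate. CA9 and SLC16A3 are textbook targets of the hypoxia-inducible factors (HIF), which bind DNA at a short core element, ACGTG or GCGTG.

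Promoter sequences of CA9, SLC16A3 and SLC16A9 are shown first as examples, since many of the results concern these genes. The core element was not particular to them, since each of the 6 genes with a promoter held ACGTG or GCGTG at 1 or more of its starts. They come from RefSeq (GRCh38.p14), which gave a promoter of 300 bases (250 before to 50 after a transcript start) for 6 of the 8 genes. Both strands were searched for ACGTG and for GCGTG. Each sequence is 30 bases long and reads 5′ to 3′ on the strand of the gene, with ACGTG, its reverse complement CACGT or the palindrome that joins both in capitals.
CA9: tcgtttccaatgCACGTacagcccgtacac
SLC16A3: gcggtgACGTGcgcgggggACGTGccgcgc
SLC16A9: gcttggccagggCACGTGgtgggcggcggg

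The CA9 sequence is chr9:35673898-35673927 on the plus strand and holds the element once, at position -18 from the start, read on the opposite strand. The SLC16A3 sequence is chr17:82228968-82228997 on the plus strand and holds it at positions -68 and -55 of 1 of the 5 starts that RefSeq lists for this gene. The SLC16A9 sequence is chr10:59710109-59710138 on the minus strand, with the palindrome at position -47 of 1 of 2 starts. Of all 35116 promoters in the table, 21.4% held ACGTG on either strand, 36.5% held GCGTG and 48.4% held either, so a match is common and is given as a description. These shares are per promoter, and a gene with several starts has more chances of a match. They are therefore not comparable with the count of genes above. SLC4A2 held the same 3 ACGTG sites at 2 neighbouring starts whose windows overlap, BSG held ACGTG once and GCGTG 4 times at 1 of its 2 starts, and CA12 held GCGTG 2 times. Any link between the element and the levels of these genes was not tested.

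In GENCODE release 29 (GRCh38), CA9 (ENSG00000107159) spans bases 35673856 to 35681159 of chromosome 9 and CA12 (ENSG00000074410) bases 63321378 to 63382161 of chromosome 15. CA2 (ENSG00000104267) lies at 85463852 to 85481493 of chromosome 8. SLC16A1 (ENSG00000155380) lies at 112911847 to 112957013 of chromosome 1, SLC16A3 (ENSG00000141526) at 82228397 to 82261129 of chromosome 17 and SLC16A9 (ENSG00000165449) at 59650761 to 59736002 of chromosome 10. BSG (ENSG00000172270) lies at 571277 to 583493 of chromosome 19 and SLC4A2 (ENSG00000164889) at 151057210 to 151076527 of chromosome 7. In CA9, 38.5% of the exon bases are shared with ARHGEF39 on the opposite strand, and in SLC4A2 13.8% are shared with CDK5 and an antisense gene. The share was at most 6.0% in the other 6 genes. Whether the counting used strand is not stated in the sources used here, so reads of these overlaps may belong to either gene.

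Library totals ran from 76481820 to 91604947 counts. APOA4 itself was read at 8.95, 9.67 and 8.46 CPM (counts scaled to the library size, after TMM) in HepG2 at 0 h and at 8.35, 7.80 and 6.99 CPM in APOA4-KO, a log2 fold change of -0.23 ± 0.0807 (SE, adjusted p = 0.04). In hypoxia it lay between 18.9 and 21.7 CPM in HepG2 and between 7.51 and 8.54 CPM in APOA4-KO. A gene count does not give the sequence at the edited site, so the edit was not checked here. The summed level of 8 hepatocyte markers, ALB and AFP among them, lay between 45769 and 73297 CPM, and the sums of 5 macrophage, 4 fibroblast or stellate and 4 endothelial markers stayed at or below 14.3, 53.2 and 16.1 CPM. In bulk RNA, fewer cells of a type and less RNA per cell cannot be told apart.

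Compared per length, in the deposited FPKM, BSG was the most abundant of the 8 genes in every group, with group means from 255 ± 2.0 (SD, n = 3) in HepG2 at 0 h to 347 ± 5.52 in APOA4-KO at 48 h. SLC16A3 followed at 0 h with 43.5 ± 0.465 in HepG2 and 54.2 ± 1.76 in APOA4-KO, close to SLC4A2 in HepG2 (41.8 ± 0.427). CA9 had 7.54 ± 0.930 FPKM in HepG2 at 0 h, less than SLC16A1 (13.7 ± 0.229), and 233 ± 3.91 in APOA4-KO at 48 h, more than SLC16A3 (105 ± 0.505). CA12 and CA2 never exceeded 0.13 and 0.15 FPKM in any library. The FPKM length covers all exons of a gene (9437 bases for SLC16A3 and 1634 for CA9), so a gene with long unused exons is understated.

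**Figure D1:**
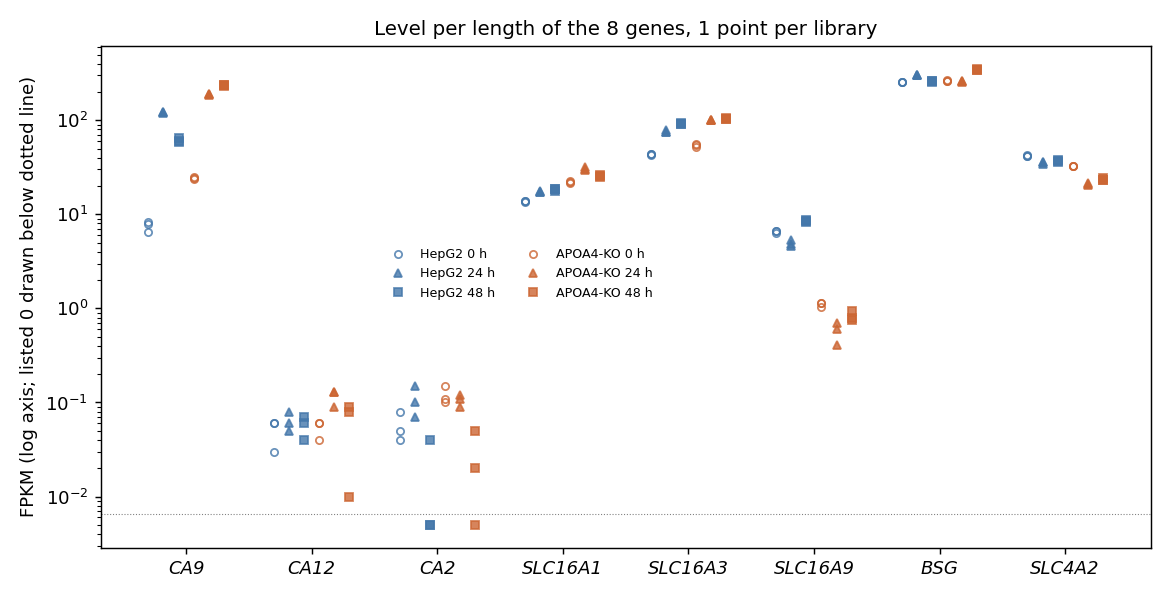
FPKM (log axis) of the 8 genes in each of the 18 libraries, with colour for the line and symbol for the time. BSG lay highest in every group, CA9 spanned the widest range of the 6 well-read genes, and CA12 and CA2 stayed at or below 0.15 FPKM, with libraries listed at 0 drawn below the dotted line.

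CA9 carried the widest response. In HepG2 it was read at 13.2, 10.4 and 12.7 CPM at 0 h, at 203, 200 and 209 CPM at 24 h and at 95.2, 92 and 101 CPM at 48 h. In APOA4-KO it was read at 38.0, 37.9 and 39.2 CPM at 0 h, at 306, 299 and 306 CPM at 24 h and at 410, 416 and 404 CPM at 48 h. No 2 groups overlapped: HepG2 at 0 h was lowest, followed by APOA4-KO at 0 h, HepG2 at 48 h, HepG2 at 24 h, APOA4-KO at 24 h and APOA4-KO at 48 h.

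From 0 h to 24 h, CA9 rose 16.9-fold in HepG2 (log2 fold change 4.08 ± 0.0619, adjusted p = 6.9e-19) and 7.92-fold in APOA4-KO (2.99 ± 0.0576, adjusted p = 7.9e-18). The 2 lines then went opposite ways. Between 24 h and 48 h, CA9 fell 2.12-fold in HepG2 (log2 fold change -1.09 ± 0.0538, adjusted p = 2.3e-11) and rose 1.35-fold in APOA4-KO (0.43 ± 0.0529, adjusted p = 1.9e-06). At 48 h it was 7.95-fold above 0 h in HepG2, and in APOA4-KO it had risen 10.7-fold (3.42 ± 0.0586, adjusted p = 7e-19).

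Already before hypoxia, CA9 was 3.17-fold higher in APOA4-KO than in HepG2 (1.67 ± 0.0585, adjusted p = 1.4e-13). The lines were closest at 24 h, at 1.49-fold (0.57 ± 0.0531, adjusted p = 2.7e-08), and farthest apart at 48 h, at 4.27-fold (2.09 ± 0.0552). The change to 24 h was thus smaller in APOA4-KO on the log2 scale, by -1.09 ± 0.0785 (adjusted p = 5e-09), while the change to 48 h was larger by 0.43 ± 0.0785. ARHGEF39, the gene on the other strand of CA9, moved beside it: 13.4 to 18.3 CPM in HepG2 at 0 h, 24.4 to 26.3 at 24 h and 21.9 to 24.7 at 48 h, and 18.3 to 19.2, 29.1 to 35.1 and 31.8 to 36.1 CPM in APOA4-KO. At 0 h in HepG2 this was more than CA9 itself, and in hypoxia it was at most 36.1 CPM beside at least 92 CPM of CA9. The part of shared reads in the level of CA9 at 0 h was not tested.

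**Figure D2:**
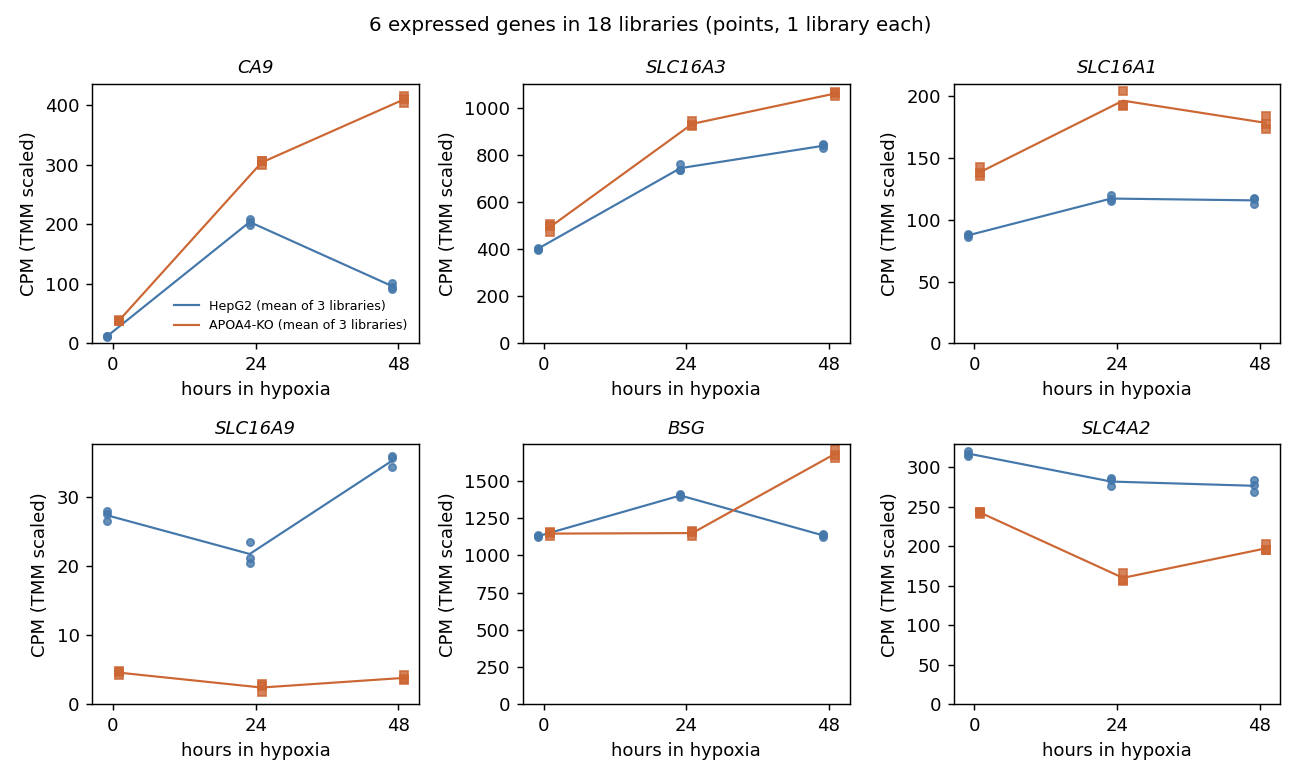
CPM after TMM scaling (vertical axes, each starting at 0) against hours in hypoxia for the 6 well-read genes. Points are single libraries and lines join the means of 3. After 24 h CA9 went down in HepG2 and up in APOA4-KO, SLC16A9 stayed at or below 4.77 CPM in APOA4-KO, and the BSG peak came at 24 h for HepG2, at 48 h for APOA4-KO.

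The 10 HIF targets listed as a check on the hypoxia (ADM, ANKRD37, BNIP3, EGLN3, KDM3A, NDRG1, P4HA1, PDK1, SLC2A1 and VEGFA) rose in both lines at 24 h, all 10 of 10 with a median log2 fold change of 0.94 in HepG2 and 1.69 in APOA4-KO (all genes, -0.03 and -0.01). Of all tested genes, 29.6% in HepG2 and 44.4% in APOA4-KO passed in either direction. CA9 exceeded each of them at 24 h in both lines. Between 24 h and 48 h in HepG2, 9 of the 10 rose further and none fell by the test, with a median of 0.73 (all genes, 0.01), while CA9 fell. In that interval 30.5% of all tested genes passed in either direction. In APOA4-KO over the same interval, 8 of the 10 rose and 1 fell, with a median of 0.57 (all genes, -0.05), and CA9 rose. There 41.3% of all tested genes passed in either direction. The 1 that fell was PDK1, a kinase that inhibits pyruvate dehydrogenase. It fell by 0.44 ± 0.0505 in APOA4-KO and rose by 1.33 ± 0.0515 in HepG2, the reverse of CA9. SLC16A3 stayed close to the lower edge of the 10 in APOA4-KO. Between the lines, 10 of the 10 listed targets were higher in APOA4-KO at 0 h, as CA9 was (median 0.38, all genes -0.01). At 24 h, 9 were higher and none lower (median 1.17, all genes 0.01). Their change to 24 h was larger in APOA4-KO for 8 and smaller for 1 (median 0.71, all genes -0.01). For CA9 that change was smaller. Of all tested genes, 30.5%, 48.1% and 32.2% passed in these comparisons, in either direction.

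**Figure D3:**
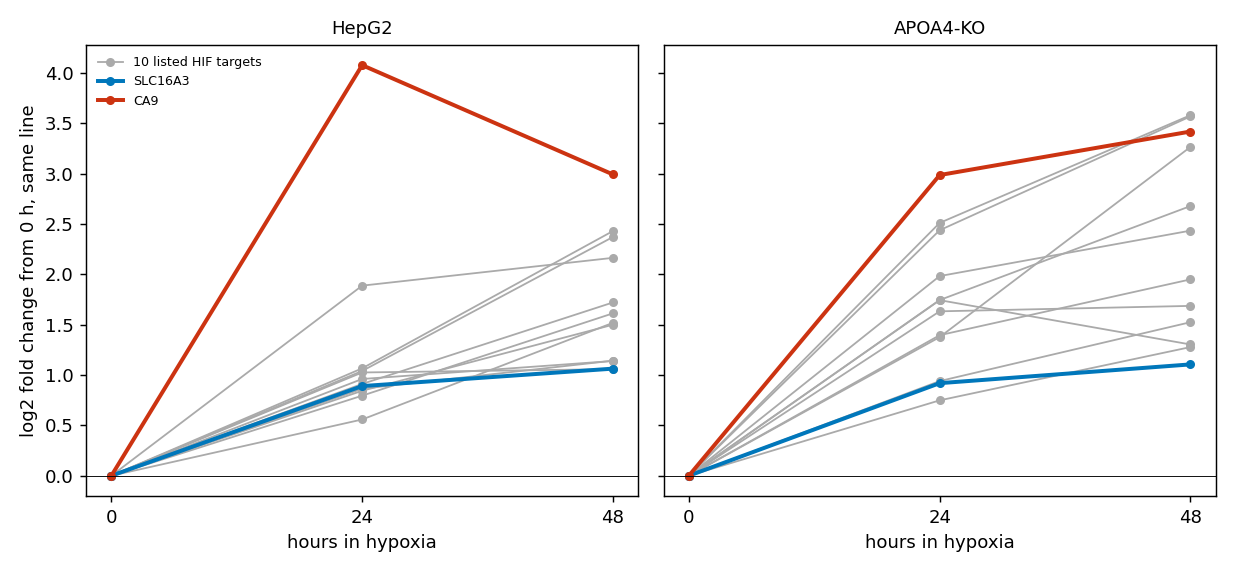
Log2 fold change from 0 h in the same line against hours in hypoxia, for CA9 (red), SLC16A3 (blue) and the 10 listed HIF targets (grey), from the fit of all 18 libraries. In HepG2 CA9 went from 4.08 at 24 h to 2.99 at 48 h, while no grey line came down by the test; in APOA4-KO CA9 went from 2.99 to 3.42.

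CA12 and CA2 were close to the limit of detection. CA12, the second membrane carbonic anhydrase, had 18 to 51 counts per library in HepG2, and in APOA4-KO 21 to 40 counts at 0 h, 51 to 77 at 24 h and 4 to 49 at 48 h. The change to 24 h in APOA4-KO was 1.17 ± 0.584 (adjusted p = 0.12; 0.024 when only these groups were fitted), and no comparison of CA12 passed the test. CA2 had between 0 and 24 counts, with 0, 0 and 8 counts in HepG2 at 48 h, and no comparison passed either (lowest adjusted p = 0.066, HepG2 at 48 h against 24 h). That one passed with DESeq2 (adjusted p = 0.0099) and without the library of 8 counts, HepG2 48 h replicate 3 (adjusted p = 0.0024). Leaving out that library also moved the CA2 log2 fold change to -6.31 for HepG2 at 48 h against 0 h and to 5.34 between the lines at 48 h. The choice of genes had used these contrasts, so no p is given. With limma on log2(FPKM + 1), CA2 passed for APOA4-KO at 0 h against HepG2 and at 48 h against 0 h and 24 h (adjusted p = 0.0014 to 0.039). CA12 passed by limma in 3 comparisons (adjusted p = 0.018 to 0.041). With so few counts, no direction is drawn for either gene.

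SLC16A3 (MCT4), the transporter of cells that export lactate, rose with hypoxia to nearly the same extent in both lines. In HepG2 it was read at 402, 397 and 407 CPM at 0 h, at 764, 735 and 735 CPM at 24 h and at 843, 848 and 829 CPM at 48 h. In APOA4-KO the libraries held 507, 501 and 472 CPM at 0 h, 929, 925 and 945 CPM at 24 h and 1052, 1070 and 1063 CPM at 48 h. The groups did not overlap, and at each time every APOA4-KO library lay above every HepG2 library.

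By 24 h SLC16A3 had risen 1.85-fold in HepG2 (0.89 ± 0.0229, adjusted p = 8.2e-16) and 1.89-fold in APOA4-KO (0.92 ± 0.0229, adjusted p = 3.1e-16). A further small rise followed to 48 h, by 0.17 ± 0.0227 (adjusted p = 8.3e-06) and 0.19 ± 0.0227 (adjusted p = 1.7e-06). The rises of the 2 lines to 24 h differed by 0.03 ± 0.0321 (adjusted p = 0.58). APOA4-KO was higher by 0.30 ± 0.0228 at 0 h (adjusted p = 8e-09) and by 0.32 ± 0.0227 at 24 h (adjusted p = 5.6e-10), and by 0.34 ± 0.0227 at 48 h. CSNK1D, whose exons share 482 bases with SLC16A3 on the opposite strand, differed by 0.00 ± 0.0232 between 24 h and 0 h in HepG2 (adjusted p = 0.95) and by -0.05 ± 0.0232 in APOA4-KO (adjusted p = 0.13). Between 24 h and 48 h CSNK1D rose by 0.49 ± 0.0232 in APOA4-KO (adjusted p = 5.2e-12) and fell by 0.16 ± 0.0232 in HepG2 (adjusted p = 2.1e-05). The part of shared reads was not tested.

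SLC16A1 (MCT1), which moves lactate in either direction, rose less. HepG2 libraries held 85.7, 88.5 and 87.9 CPM at 0 h, 115, 116 and 120 CPM at 24 h and 117, 113 and 118 CPM at 48 h, so that the last 2 groups overlapped. APOA4-KO libraries held 138, 135 and 142 CPM at 0 h, 192, 204 and 192 CPM at 24 h and 173, 177 and 184 CPM at 48 h. Every APOA4-KO group, 0 h included, lay above all 3 HepG2 groups.

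The rise to 24 h was 1.34-fold in HepG2 (0.42 ± 0.0318, adjusted p = 5.9e-09) and 1.42-fold in APOA4-KO (0.50 ± 0.0316, adjusted p = 1.4e-10). From 24 h to 48 h, HepG2 differed by -0.02 ± 0.0317 (adjusted p = 0.76) and APOA4-KO fell by 0.14 ± 0.0315 (adjusted p = 0.0014). Between the lines, SLC16A1 was 1.58-fold higher in APOA4-KO at 0 h (0.66 ± 0.0319, adjusted p = 1.1e-11), 1.68-fold higher at 24 h (0.74 ± 0.0318, adjusted p = 6e-13) and 1.54-fold higher at 48 h. The rises to 24 h differed between the lines by 0.08 ± 0.0448 (adjusted p = 0.2). By total count alone the adjusted p was 0.039, and by limma on log2(FPKM + 1) it was 0.026. Since SLC16A3 rose more than SLC16A1, the ratio of their FPKM within a library went from 3.16 ± 0.0702 at 0 h through 4.38 ± 0.172 to 5.00 ± 0.168 at 48 h in HepG2, and from 2.45 ± 0.147 through 3.27 ± 0.137 to 4.10 ± 0.106 in APOA4-KO. This ratio does not depend on the scaling of libraries, and at each time it was lower in all 3 APOA4-KO libraries than in all 3 HepG2 libraries.

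SLC16A9 (MCT9), a family member linked to carnitine transport, set the lines apart. HepG2 libraries held 27.6, 28.0 and 26.6 CPM at 0 h, 21.3, 20.6 and 23.6 CPM at 24 h and 35.8, 36.0 and 34.4 CPM at 48 h. APOA4-KO libraries held 4.77, 4.31 and 4.67 CPM at 0 h, 1.74, 2.95 and 2.58 CPM at 24 h and 4.30, 3.47 and 3.71 CPM at 48 h, from 147 to 406 counts. All 9 libraries of APOA4-KO lay below all 9 of HepG2, and within APOA4-KO the groups at 0 h and 48 h were next to each other.

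The gap was present before hypoxia, when SLC16A9 was 5.98-fold lower in APOA4-KO (-2.58 ± 0.12, adjusted p = 7.4e-12). It was 9.01-fold at 24 h (-3.17 ± 0.127, adjusted p = 2.7e-13) and 9.24-fold at 48 h. In APOA4-KO, SLC16A9 fell by 0.92 ± 0.128 from 0 h to 24 h (adjusted p = 6.3e-06), and both lines rose from 24 h to 48 h, by 0.70 ± 0.111 in HepG2 (adjusted p = 6.9e-05) and by 0.66 ± 0.13 in APOA4-KO (adjusted p = 0.00039). The change to 24 h in HepG2 was -0.33 ± 0.111 (adjusted p = 0.03). This call was lost without any of the 3 HepG2 libraries at 0 h and without replicate 1 or 2 at 24 h (adjusted p = 0.054 to 0.11), with the size factors of DESeq2 (0.055) and without the filter on low counts (0.058). The change to 24 h differed between the lines by -0.59 ± 0.169 (adjusted p = 0.011), which fell to -0.08 (adjusted p = 0.54) in a limma fit on log2(FPKM + 1), a scale that understates changes of low genes.

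BSG, the chaperone of both lactate transporters, peaked at different times. HepG2 libraries held 1121, 1138 and 1128 CPM at 0 h, 1405, 1410 and 1395 CPM at 24 h and 1146, 1135 and 1124 CPM at 48 h. APOA4-KO libraries held 1148, 1132 and 1161 CPM at 0 h, 1132, 1156 and 1164 CPM at 24 h and 1654, 1717 and 1678 CPM at 48 h. HepG2 at 0 h and 48 h and APOA4-KO at 0 h and 24 h overlapped, with HepG2 at 24 h and then APOA4-KO at 48 h above them.

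In HepG2, BSG rose by 0.31 ± 0.0157 to 24 h (adjusted p = 1.7e-11) and fell by 0.31 ± 0.0157 to 48 h (adjusted p = 3.4e-11). APOA4-KO changed to 24 h by 0.00 ± 0.0157 (adjusted p = 0.85), and BSG rose 1.46-fold from 24 h to 48 h (0.55 ± 0.0157, adjusted p = 5.5e-15). The lines differed by 0.02 ± 0.0157 at 0 h (adjusted p = 0.33), by -0.29 ± 0.0157 at 24 h (adjusted p = 1.8e-11) and by 0.57 ± 0.0157 at 48 h. The 2 lines' changes to 24 h differed by -0.31 ± 0.0221 (adjusted p = 4.9e-09). Set against the transporters it serves, BSG per SLC16A1 and SLC16A3 together (ratio of FPKM) went from 4.46 ± 0.0564 through 3.21 ± 0.0514 to 2.36 ± 0.0112 in HepG2 and from 3.45 ± 0.103 through 1.98 ± 0.0145 to 2.66 ± 0.0359 in APOA4-KO.

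SLC4A2 (AE2), which exports bicarbonate in exchange for chloride, was the only one of the 6 well-read genes that was lower in hypoxia than at 0 h in both lines and at both times. HepG2 libraries held 315, 321 and 316 CPM at 0 h, 283, 276 and 286 CPM at 24 h and 283, 277 and 269 CPM at 48 h. APOA4-KO libraries held 243, 244 and 241 CPM at 0 h, 156, 158 and 166 CPM at 24 h and 202, 195 and 195 CPM at 48 h. HepG2 at 24 h and 48 h overlapped, and all 9 APOA4-KO libraries lay below all 9 of HepG2.

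SLC4A2 fell by 0.17 ± 0.0264 to 24 h in HepG2 (adjusted p = 5e-05) and by 0.60 ± 0.0265 in APOA4-KO (adjusted p = 1.1e-12), a difference between the lines of -0.43 ± 0.0373 (adjusted p = 5.1e-08). From 24 h to 48 h, HepG2 differed by -0.03 ± 0.0264 (adjusted p = 0.51) and APOA4-KO rose by 0.30 ± 0.0265 (adjusted p = 2.4e-08). APOA4-KO was lower than HepG2 at 0 h (-0.39 ± 0.0264, adjusted p = 1.5e-09). After 24 h of hypoxia the gap had widened to -0.82 ± 0.0266 (adjusted p = 1.6e-14), and after 48 h it was -0.49 ± 0.0265. CDK5, which shares 331 exon bases with SLC4A2 on the opposite strand, was also lower at 24 h in both lines: it held 26.7 to 28.8 CPM in HepG2 and 18.6 to 21.4 CPM in APOA4-KO at 0 h, against 20.3 to 21.9 and 9.45 to 11.7 CPM at 24 h. In APOA4-KO between 24 h and 48 h, where SLC4A2 rose, CDK5 differed by 0.00 ± 0.0783 (adjusted p = 1). At 28.8 CPM or less, CDK5 stayed far below SLC4A2, and the part of the shared reads was not tested.

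**Figure D4:**
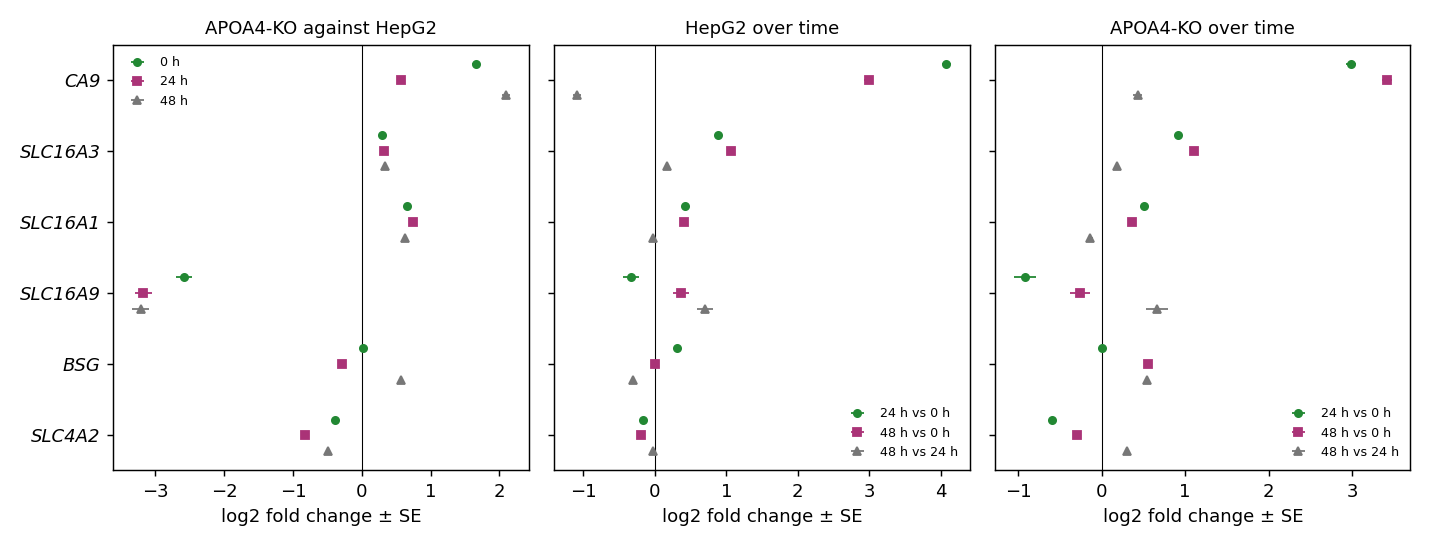
Log2 fold change with its SE from edgeR for the 6 well-read genes, between the lines at each time (left) and between times in HepG2 (middle) and APOA4-KO (right). Between the lines CA9, SLC16A3 and SLC16A1 lay to the right of 0 and SLC16A9 and SLC4A2 to the left at all 3 times, while BSG changed sides.

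Counted over the 8 genes, 6 passed an adjusted p of 0.05 from 0 h to 24 h in HepG2, 4 of them upwards (29.6% of all tested genes passed), and 1, CA9, also changed at least 2-fold (3.08% of all). From 24 h to 48 h in HepG2, 4 passed (30.5%), 1 of them with 2-fold, again CA9 (2.12%), whose log2 fold change of -1.09 lies near that limit. From 0 h to 48 h, CA9 and SLC16A3 were past both limits (2.18% of all), but the choice of genes had used this contrast and nothing is read from the count.

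In APOA4-KO, 5 passed from 0 h to 24 h (44.4% of all), with CA9 alone past 2-fold (5.88%), and 5 from 0 h to 48 h (49.9%), with CA9 and SLC16A3 past 2-fold (12.2%). From 24 h to 48 h, 6 passed (41.3%), 5 of them upwards, and none reached 2-fold (5.66%).

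Between the lines, 5 passed at 0 h (30.5% of all) and 6 at 24 h (48.1%). CA9 and SLC16A9 were past 2-fold at 0 h (4.31%), SLC16A9 alone at 24 h (7.77%), and both again at 48 h (13.6%), where the choice of genes had used the contrast and nothing is read from the count. The change to 24 h differed between the lines for 4 genes, CA9, SLC16A9, BSG and SLC4A2 (32.2%), all 4 with a lower value in APOA4-KO, and CA9 was past 2-fold (2.59%). In the change to 48 h no gene was past 2-fold (7.42%).

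The partners of these genes followed several courses. LDHA, the lactate dehydrogenase subunit that turns pyruvate into lactate, rose by 0.98 ± 0.0197 to 24 h in HepG2 (adjusted p = 3.7e-17) and by 0.97 ± 0.0196 in APOA4-KO (adjusted p = 1.5e-17), and was higher in APOA4-KO at 0 h by 0.56 ± 0.0195 (adjusted p = 1.4e-13). LDHB, the subunit that favours the reverse reaction, was low throughout, with 1 APOA4-KO library at 24 h (replicate 1) at 11.1 CPM beside 4.2 and 4.45 CPM. MPC2, a subunit of the mitochondrial pyruvate carrier, fell to 24 h by 0.85 ± 0.065 in HepG2 (adjusted p = 7.7e-09) and by 0.57 ± 0.0652 in APOA4-KO (adjusted p = 5.7e-07). Its other subunit, MPC1, fell to 24 h by 0.20 ± 0.0534 in HepG2 (adjusted p = 0.0061) and differed by 0.08 ± 0.0531 in APOA4-KO (adjusted p = 0.29). From 24 h to 48 h, LDHA rose by 0.19 ± 0.0195 in HepG2 (adjusted p = 4.2e-07) and fell by 0.14 ± 0.0195 in APOA4-KO (adjusted p = 6.1e-06). MPC1 differed by -0.14 ± 0.0535 in HepG2 (adjusted p = 0.061) and fell by 0.73 ± 0.0538 in APOA4-KO (adjusted p = 2.3e-09). MPC2 rose by 0.50 ± 0.0649 in HepG2 (adjusted p = 8.3e-06) and differed by -0.15 ± 0.0659 in APOA4-KO (adjusted p = 0.075).

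EMB, the chaperone embigin, lay between 0.213 and 1.75 CPM and passed no test. SLC16A7 (MCT2), a transporter of high affinity for pyruvate, was higher in APOA4-KO at 0 h by 2.53 ± 0.599 (adjusted p = 0.003), at 1.09 to 1.65 CPM against 0.0949 to 0.339 CPM. SLC4A4, a sodium-bicarbonate cotransporter, had too few counts to be tested.

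Among the other monocarboxylate transporters, 9 of 14 listed genes were tested. SLC16A6 (MCT7), linked to export of ketone bodies, moved most: it held 5.55 to 7.86 CPM at 0 h, 14.4 to 14.9 CPM at 24 h and 14.1 to 15.6 CPM at 48 h in HepG2, and 6.20 to 6.70, 13.4 to 15.2 and 64.3 to 67.2 CPM in APOA4-KO. The lines overlapped at 0 h and at 24 h, and at 48 h all 3 APOA4-KO libraries were above. In APOA4-KO, SLC16A6 rose by 2.21 ± 0.0873 from 24 h to 48 h (adjusted p = 4.2e-13), against 0.02 ± 0.0855 in HepG2 (adjusted p = 0.93). SLC16A13 (MCT13) fell by 0.84 ± 0.102 in APOA4-KO over the same interval (adjusted p = 1.6e-06), SLC16A5 rose by 0.76 ± 0.196 (adjusted p = 0.0038) and SLC16A10, an aromatic amino acid transporter, fell by 0.37 ± 0.0786 (adjusted p = 0.00077). From 0 h to 24 h, 1 of the 9 rose and 2 fell in HepG2 (median log2 fold change 0.128, all genes -0.0347), and 2 rose and 2 fell in APOA4-KO (median -0.335, all genes -0.00957). Of all tested genes, 29.6% passed in either direction in HepG2 and 44.4% in APOA4-KO, so nothing about this family is read from these counts.

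Of the other carbonic anhydrases, 7 of 12 were tested. CA5A, the mitochondrial enzyme of liver, was higher in APOA4-KO at 0 h by 0.56 ± 0.0825 (adjusted p = 3.2e-05) and fell there by 0.56 ± 0.0825 to 24 h (adjusted p = 1.2e-05). CA14 was higher in APOA4-KO at 0 h by 1.02 ± 0.225 (adjusted p = 0.0017) and CA13 was lower (-0.45 ± 0.118, adjusted p = 0.0069). From 0 h to 24 h, none of the 7 rose and 1 fell in HepG2 (29.6% of all genes passed in either direction), and 1 rose and 3 fell in APOA4-KO (44.4%). Their median log2 fold change was 0.0975 in HepG2 (all genes -0.0347) and -0.561 in APOA4-KO (all genes -0.00957). Apart from CA9, no tested carbonic anhydrase rose from 0 h by at least 2-fold past the test, in either line at 24 h or 48 h.

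Of the other bicarbonate and anion exchangers, 8 of 11 were tested. SLC4A7, a sodium-bicarbonate cotransporter, rose to 24 h by 0.32 ± 0.0725 in HepG2 (adjusted p = 0.002) and by 0.71 ± 0.0719 in APOA4-KO (adjusted p = 1e-07), and by a further 0.59 ± 0.0709 to 48 h in APOA4-KO (adjusted p = 1.3e-06). SLC4A11 was lower in APOA4-KO at 0 h (-1.29 ± 0.0346, adjusted p = 2.6e-15), fell by 0.70 ± 0.0346 to 24 h (adjusted p = 4.6e-12) and rose by 1.44 ± 0.035 to 48 h (adjusted p = 6.1e-16). SLC26A6 rose by 0.70 ± 0.0441 in APOA4-KO from 24 h to 48 h (adjusted p = 2.6e-10) and fell by 0.50 ± 0.0442 in HepG2 (adjusted p = 5.9e-08). Over that interval 4 of the 8 rose and none fell in APOA4-KO (median 0.835, all genes -0.0465), where 41.3% of all genes passed in either direction, and 1 rose and 1 fell in HepG2 (30.5%).

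Among the proton pumps, more genes fell than rose by 24 h. Of 23 tested subunits of the vacuolar proton ATPase, 13 fell and none rose in HepG2 (median -0.19, all genes -0.03), and 13 fell and 4 rose in APOA4-KO (median -0.30, all genes -0.01), where 29.6% and 44.4% of all tested genes passed in either direction. ATP6V0E2 fell by 1.09 ± 0.0331 in HepG2 (adjusted p = 1.1e-14) and by 1.42 ± 0.0335 in APOA4-KO (adjusted p = 1.4e-16), and ATP6V0D1 fell by 0.67 ± 0.0403 (adjusted p = 2.2e-10) and 0.98 ± 0.0406 (adjusted p = 4.5e-13). From 24 h to 48 h, 12 of the 23 rose and 2 fell in HepG2 (median 0.18, all genes 0.01). In APOA4-KO, 10 rose and 5 fell over that interval (median 0.07, all genes -0.05). Of all tested genes, 30.5% and 41.3% passed in either direction. The lines parted in ATP6V0E2, which rose by 0.72 ± 0.0329 in HepG2 (adjusted p = 8.1e-12) and fell by 0.42 ± 0.0334 in APOA4-KO (adjusted p = 5.9e-09). Of 9 tested sodium-proton exchangers and regulators, 3 fell in HepG2 (29.6% of all genes passed in either direction), and 4 fell and 1 rose in APOA4-KO (44.4%) to 24 h.

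Proton-sensing receptors and channels were hardly read, with 5 of 6 tested. ASIC1, an acid-gated channel, fell to 24 h in APOA4-KO by 0.36 ± 0.127 (adjusted p = 0.026). It was the only one of the 5 to pass there (44.4% of all genes passed in either direction), and none of the 5 passed in HepG2 (29.6%). HCAR1, the lactate receptor, rose to 24 h by 0.96 ± 0.112 in HepG2 (adjusted p = 2e-06) and by 1.06 ± 0.111 in APOA4-KO (adjusted p = 1.7e-07). LDHD, a mitochondrial dehydrogenase of D-lactate, fell by 1.19 ± 0.176 (adjusted p = 3.3e-05) and 1.05 ± 0.175 (adjusted p = 5.3e-05). Of the 6 tested genes of lactate and pyruvate handling, 2 rose and 3 fell in HepG2 (29.6% of all genes passed in either direction) and 2 rose and 2 fell in APOA4-KO (44.4%) at 24 h.

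The genes whose log2 CPM over the 18 libraries was most like that of each gene were found by Pearson's r among 12799 genes, as a description, since libraries share lines and times. For SLC16A3 they were the glycolytic enzymes ENO1 (r = 0.985) and PGK1 (r = 0.984). For CA9 they were RAB42 (r = 0.99) and PHKA2 (r = 0.984), a regulatory subunit of phosphorylase kinase, and for SLC16A1 VPS13A (r = 0.992) and APOL1 (r = 0.991). SLC16A9 ran with MYL9 (r = 0.99) and LAMC3 (r = 0.983), BSG with PREB (r = 0.992) and LRP5 (r = 0.984), and SLC4A2 with PODXL2 (r = 0.991) and OAF (r = 0.988). For CA12 and CA2, with few counts, the highest r was 0.773 and 0.85.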

How the data were processed

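The authors deposited raw whole-number counts per gene for 18 libraries. They also deposited FPKM, which equal each count over the library total and over a length held constant per gene. According to the study's methods, reads were trimmed with fastp, aligned with HISAT2 to GRCh38.p13 and counted with featureCounts; the submitters' processing notes name StringTie beside fastp and HISAT2, so the counter is not settled. Handling of strand, of reads with several alignments and of read pairs is not given in the sources used here. Every library held an excess of genes with 4, 8 or 12 counts over adjacent values (ratios of 2.66 to 3.12, 2.06 to 2.55 and 1.58 to 2.19), so a count need not be 1 read pair and small counts are less precise than they look.

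Groups came from the sample labels. Genes were kept with filterByExpr (19743 of 61806), scaled with TMM and tested with edgeR 4.0.16 (R 4.3.3) by a quasi-likelihood F test with 1 coefficient per group over all 18 libraries. The 11 comparisons were each adjusted by Benjamini-Hochberg over all tested genes, with limits of 0.05 and, for 2-fold, an absolute log2 fold change of 1. The SE is the log2 fold change divided by the square root of F. The procedure was tested on simulated data. Alternatives used DESeq2 1.42.0 and limma 3.58.1 on log2(FPKM + 1). Levels are CPM after TMM, and the deposited FPKM where genes are compared. The genes, lists, tests and limits were chosen with earlier results of these data known. Beside the 8 genes and APOA4, the text names their partners (1 is not reported here), from each list up to 4 genes whose mean reached 100 counts and that had the widest range of group means, all genes of the HIF list, and per gene the 2 most alike. ARHGEF39, CSNK1D and CDK5 were added for their overlaps, and PDK1 was described after its values were seen. Annotated overlaps used GENCODE 29 on GRCh38, whose release is older than the authors'.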

Additional observations from a re-analysis of the deposited data

Results flagged for a closer look

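The change from 0 h differed between the lines for 4 of the 8 genes. At 24 h the difference (APOA4-KO minus HepG2, log2) was -1.09 for CA9 (edgeR, adjusted p = 5e-09), -0.59 for SLC16A9 (adjusted p = 0.011), -0.31 for BSG (adjusted p = 4.9e-09) and -0.43 for SLC4A2 (adjusted p = 5.1e-08). At 48 h, where the choice of genes had used the contrast and no p is given, it was 0.43 for CA9, -0.63 for SLC16A9, 0.55 for BSG and -0.10 for SLC4A2. The last of these was -0.08 with DESeq2 and -0.06 when only the groups compared were fitted. CA9 and BSG thus changed sign between the 2 times. Groups of 3 libraries were too small for the search for single libraries that stand apart.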

How the results depend on the processing

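Counts of genes past both limits moved by more than 1.5 times in 4 of the 11 comparisons. In 2 more, HepG2 at 48 h against 0 h and the lines at 48 h, the count went from 2 to 3 without HepG2 48 h replicate 3, by CA2. The choice of genes had used these 2 contrasts, and nothing is read from their counts. HepG2 at 48 h against 24 h gave 1, with 0 when libraries were scaled by total count alone, 2 with DESeq2, 0 with limma on log2(FPKM + 1), and 1 to 2 when 1 library was left out (2 without HepG2 48 h replicate 3, which adds CA2). APOA4-KO at 24 h against 0 h gave 1, with 2 when only the groups compared were fitted and 1 to 2 with 1 library left out (2 without APOA4-KO 24 h replicate 2). APOA4-KO at 48 h against 0 h gave 2, with 1 by total count alone and 1 by limma. The difference in the change to 24 h gave 1, with 0 by limma and 0 to 1 with 1 library left out (0 without HepG2 0 h replicate 2). Total count alone moved the median of all genes by up to -0.172 (the 48 h difference between lines) and by -0.158 for APOA4-KO 48 h against 0 h. In the 48 h difference between lines, the SLC16A3 value of 0.04 became -0.13, as it did by limma (-0.13). The SLC16A1 value of -0.04 there became -0.21 by total count alone and -0.20 by limma. BSG at 0 h, at 0.02 between the lines, passed 0.05 in 6 alternatives (0.04 to 0.05). Same-numbered libraries did not deviate together (r over 45 pairs of libraries from -0.144 to 0.0511). No pairing by number was thus seen, but this does not tell whether same-numbered libraries were handled together. A replicate block left every count of genes past both limits as it was. It changed no call except the difference between the lines in the SLC4A2 change from 0 h to 48 h (-0.10). That difference also missed 0.05 with DESeq2, its size factors, no filter or only the groups compared, and when any 1 of 10 libraries was left out. The cause of these changes was not tested.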
